A study of Homo sapiens with 30 samples.

Results

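A pair of traditional herbal formulas, Soshiho-tang and Yijin-tang, were set against each other at their high label dose by RNA sequencing of HT29, a human colon cancer line derived from an adenocarcinoma, as whole cell populations. The 6 libraries compared, of 30 in the series, are those whose titles name the high dose of either formula, with 3 replicate libraries of Soshiho-tang and 3 of Yijin-tang. Both groups received a 70% ethanol extract at a labelled 500 µg/mL for 24 h. Both formulas also had 3 libraries at a labelled 100 µg/mL and 3 at 20 µg/mL, and 3 libraries received DMSO vehicle only. These 15 libraries serve here as the dose series and the vehicle level. The labels put vehicle at 0.1% DMSO and the design text at 2% DMSO. The design text also lowers the top dose of an extract that was toxic below 500 µg/mL, so the amounts of the formulas that reached the cells are uncertain and may not be equal. All 6 titles carry the same batch letter, E. HT29 is 1 line grown in plastic. Whether a group's replicates are separate cultures is not stated in the labels, and the p-values therefore cover the spread among libraries, which could be technical alone.

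The high-dose libraries held 22.6 M, 28.0 M and 20.5 M counts for Soshiho-tang and 28.9 M, 19.6 M and 25.8 M for Yijin-tang (exact two-sided permutation test, p = 0.8, where 0.1 is the smallest p that 3 against 3 allow). Mitochondrial transcripts took 10.8%, 9.07% and 10.3% of counts with Soshiho-tang and 10.7%, 12.4% and 10.1% with Yijin-tang (exact permutation p = 0.5). All 15 colorectal epithelial markers had counts in both groups, with a summed level of 12580 to 13030 CPM with Soshiho-tang and 12380 to 12770 CPM with Yijin-tang. For sums of markers CPM is the count per M of total counts, and for single genes below it is per M of TMM-scaled library size. Of 17 markers of blood, connective tissue, endothelium, glia and liver, 8 were at 0 in each group, and the sum was 11.8 to 12.1 CPM with Soshiho-tang and 11.1 to 12.4 CPM with Yijin-tang. On the first principal component of the 21 libraries, which held 17.4% of the variance, Soshiho-tang lay at 34.2, 31.7 and 35.6, Yijin-tang at 4.59, 4.18 and 5.59, and vehicle at -13.8, -8.50 and -9.94. The vehicle libraries also lay apart from all extract libraries on the second component, so vehicle is given below as a level and carries no test.

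Soshiho-tang is traditionally made from Bupleurum, Scutellaria, Pinellia, ginseng, jujube, licorice and ginger, and Yijin-tang from Pinellia, citrus peel, Poria, licorice and ginger. Cells read plant compounds with several sensors. The aryl hydrocarbon receptor (AHR) pairs with ARNT, binds the core letters GCGTG, and switches on enzymes such as CYP1A1 that oxidise aromatic molecules. NRF2, freed from its inhibitor KEAP1 by electrophiles, binds antioxidant response elements with small MAF proteins and raises glutathione synthesis, quinone reduction and heme breakdown. ATF4 is translated when eIF2 is phosphorylated, and it raises amino acid uptake, asparagine synthesis and, with CHOP, genes of the stress response. In the gut, ATOH1 directs precursors to the secretory fate of goblet and enteroendocrine cells, and Notch signalling holds ATOH1 down in neighbouring cells.

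The promoters of CYP1A1, GCLM, CHAC1 and EMP1 are shown because each gene was higher with Soshiho-tang and stands for a separate group of genes described below. The windows run from 250 bases before to 50 bases after the RefSeq gene start on GRCh38.p14, 5′ to 3′ on the strand of the gene, at chr15:74725479-74725778 (minus), chr1:93909381-93909680 (minus), chr15:40953221-40953520 (plus) and chr12:13196476-13196775 (plus). Capitals mark a match, on either strand, to GCGTG in CYP1A1, to the antioxidant response element TGACNNNGC in GCLM, to the C/EBP-ATF element TGATGNAA in CHAC1 and to the AP-1 element TGACTCA in EMP1, a motif that can overlap TGACNNNGC.
CYP1A1: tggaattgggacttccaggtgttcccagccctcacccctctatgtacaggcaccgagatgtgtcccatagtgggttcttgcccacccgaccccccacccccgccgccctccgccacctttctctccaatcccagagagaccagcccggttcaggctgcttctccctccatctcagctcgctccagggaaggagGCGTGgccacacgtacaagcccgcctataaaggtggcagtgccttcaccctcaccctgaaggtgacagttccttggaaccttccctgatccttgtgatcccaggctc
GCLM: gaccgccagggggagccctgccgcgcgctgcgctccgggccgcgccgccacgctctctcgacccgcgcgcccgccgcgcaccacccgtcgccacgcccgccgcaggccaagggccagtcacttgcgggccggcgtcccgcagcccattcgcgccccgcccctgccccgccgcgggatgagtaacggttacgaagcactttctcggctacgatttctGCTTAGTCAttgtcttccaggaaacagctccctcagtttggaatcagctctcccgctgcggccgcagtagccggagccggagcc
CHAC1: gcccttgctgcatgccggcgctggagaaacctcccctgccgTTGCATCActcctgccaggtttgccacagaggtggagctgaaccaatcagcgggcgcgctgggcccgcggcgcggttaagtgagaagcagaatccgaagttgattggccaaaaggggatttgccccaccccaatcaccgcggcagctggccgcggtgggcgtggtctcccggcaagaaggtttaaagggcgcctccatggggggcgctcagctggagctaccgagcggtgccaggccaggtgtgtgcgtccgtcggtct
EMP1: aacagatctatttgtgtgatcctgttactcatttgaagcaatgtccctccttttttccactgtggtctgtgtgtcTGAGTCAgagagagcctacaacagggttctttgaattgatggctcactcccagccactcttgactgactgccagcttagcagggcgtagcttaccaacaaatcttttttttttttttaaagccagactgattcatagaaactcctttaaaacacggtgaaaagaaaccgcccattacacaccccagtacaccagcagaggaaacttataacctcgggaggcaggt
The matches start at -57, -34, -209 and -175 bases from the gene start. Of 35116 RefSeq windows of this length, 36.5% hold GCGTG, 13.3% TGACNNNGC, 3.62% TGATGNAA and 4.95% TGACTCA, and of 15724 windows of genes tested 47.8%, 14.6%, 2.05% and 3.79% hold them. The window of ATOH1, a gene that was lower with Soshiho-tang, holds 4 matches to GCGTG, so a match describes the letters of a window and no binding was measured.

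Between the high doses, 2052 of 15882 genes tested differed at a Benjamini-Hochberg adjusted p below 0.05 in the edgeR quasi-likelihood test (12.9%). With Soshiho-tang 1039 were higher (6.54%) and 1013 lower (6.38%). These shares over all genes are the background for the counts in gene lists below. Upper-quartile scaling in place of TMM gave 789 higher and 1287 lower. Most differences were small: 31 genes were at least 2-fold higher (0.195%) and 103 at least 2-fold lower (0.649%), and the median absolute log2 fold change over all genes was 0.11. The 3 Soshiho-tang libraries all lay above the 3 of Yijin-tang in 17.0% of genes and all below in 16.4%. Among genes with a mean of at least 2 CPM whose libraries did not overlap, the largest rises were those of CYP1A1, CYP1B1, SLC22A3, ALDH1A3, LINC00973, EMP1, AKAP12, CHAC1, ADGRF1, FOSB, HMOX1 and IGFL2-AS1, with log2 fold changes between 4.03 and 1.02. The largest falls were those of CD200, ATOH1, NOX1, LINC00261, DLL4, GABRP, SLC14A1, SPEG, NPY6R, SLC38A11, CHST3 and RNF144B, between -2.13 and -1.20. Values in brackets after a gene name are log2 fold changes of Soshiho-tang over Yijin-tang with their SE, and a gene rose, fell or passed only where its adjusted p was below 0.05. In a cell population, fewer cells that express a gene and less RNA per cell cannot be told apart.

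**Figure D1:**
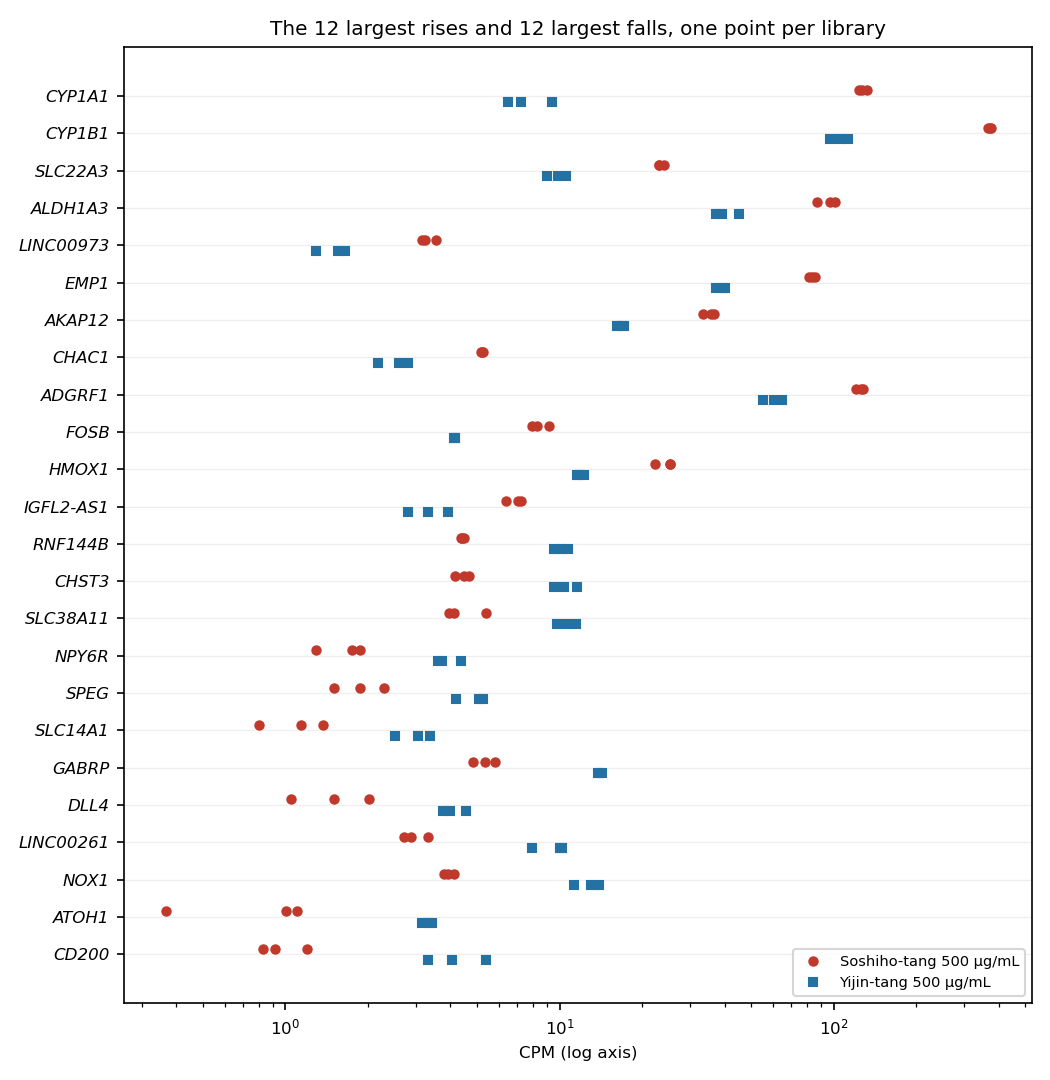
CPM on a log axis for the 12 genes with the largest rises (top) and the 12 with the largest falls (bottom) at a labelled 500 µg/mL, among genes that passed and averaged 2 CPM or more. Red circles are the 3 Soshiho-tang libraries and blue squares the 3 Yijin-tang libraries. The groups do not overlap in any of these genes, which the choice of genes required, and CYP1A1 has the widest gap, 123 CPM or more with Soshiho-tang against 9.41 CPM or less with Yijin-tang.

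Among genes with a mean of at least 2 CPM that passed, CYP1A1, a target of AHR, set the formulas farthest apart, and most other AHR targets were higher too. CYP1A1 (ENSG00000140465, chromosome 15, 74719542 to 74725610, GRCh38), which oxidises polycyclic aromatic molecules, measured 127, 133 and 123 CPM in the Soshiho-tang libraries and 9.41, 6.48 and 7.25 CPM in the Yijin-tang libraries. Its log2 fold change was 4.03 ± 0.20 (SE; edgeR quasi-likelihood with Benjamini-Hochberg, adjusted p = 2.68e-09). Vehicle libraries held 0.686, 0.592 and 0.510 CPM, so the Yijin-tang libraries, though far below those of Soshiho-tang, also lay above vehicle. CYP1B1 (chromosome 2, 38066973 to 38109902), a related oxidase, measured 365, 375 and 372 CPM with Soshiho-tang and 113, 97.0 and 105 CPM with Yijin-tang (log2 fold change 1.82 ± 0.20). ALDH1A3, which makes retinoic acid, measured 97.1, 101 and 87.2 CPM with Soshiho-tang and 45.2, 37.2 and 39.0 CPM with Yijin-tang (1.23 ± 0.16). The aldehyde dehydrogenase ALDH3A1 averaged 75.8 ± 3.34 CPM with Soshiho-tang and 40.1 ± 4.01 CPM with Yijin-tang (SD, n = 3 each; log2 fold change 0.91 ± 0.10), and TIPARP, an ADP-ribosyltransferase that restrains AHR, averaged 226 ± 7.02 CPM with Soshiho-tang and 124 ± 2.03 CPM with Yijin-tang (0.87 ± 0.087). Smaller rises were those of AHRR, the AHR repressor (0.44 ± 0.12), and the glucuronosyltransferase UGT1A6 (0.28 ± 0.055), which shares exons with its neighbours so that its reads are less certain. AHRR did not pass in 2 of 17 alternative settings. The drug efflux pump ABCG2 measured 92.8 ± 3.08 CPM with Soshiho-tang and 87.7 ± 3.07 CPM with Yijin-tang, and CYP2S1 58.7 ± 3.79 CPM with Soshiho-tang and 62.4 ± 3.03 CPM with Yijin-tang, and neither passed. In all, 7 of 9 measured AHR targets were higher and 0 lower, with a median log2 fold change of 0.87 against -0.006 over all genes. CYP1A2 and SERPINB2, the other listed targets, were too low to test, CYP1A2 with 11 counts summed over the Soshiho-tang libraries and 1 over those of Yijin-tang. The receptor itself did not pass: AHR had a log2 fold change of -0.10 ± 0.050 and its partner ARNT -0.15 ± 0.055. Of 5 measured genes of the receptor complex 1 was higher (20.0%, against 6.54% of all genes), the chaperone PTGES3 (0.13 ± 0.040), a call that 5 of 17 alternatives ended. Among 5 measured targets of the sensors PXR and CAR, UGT1A1 (0.39 ± 0.049) and CYP3A5 (0.31 ± 0.090) were higher, CYP3A5 not in 5 of 17 alternatives. UGT1A1 is one of the neighbours that share exons with UGT1A6, so its reads are less certain too.

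Known targets of NRF2 were mostly higher with Soshiho-tang. Of 30 measured NRF2 targets, 26 were higher and 0 lower, and the remaining 4 did not pass, with a median log2 fold change of 0.40. HMOX1 (chromosome 22, 35380361 to 35394214), which breaks down heme, measured 25.2, 25.2 and 22.2 CPM with Soshiho-tang and 12.3, 11.8 and 11.6 CPM with Yijin-tang, with no overlap and a log2 fold change of 1.03 ± 0.082 (edgeR quasi-likelihood with Benjamini-Hochberg, adjusted p = 4.6e-10). Vehicle libraries measured 10.6, 10.4 and 11.8 CPM, close to those of Yijin-tang. SLC7A11, the cystine importer that feeds glutathione synthesis, measured 408, 415 and 417 CPM with Soshiho-tang and 215, 203 and 208 CPM with Yijin-tang (0.99 ± 0.092), and both groups lay above the 90.8, 132 and 110.1 CPM of vehicle. The subunits of the enzyme that starts glutathione synthesis moved with it: GCLM averaged 138 ± 1.47 CPM with Soshiho-tang and 82.3 ± 0.763 CPM with Yijin-tang (SD, n = 3 each; 0.74 ± 0.071), and GCLC averaged 157 ± 5.17 CPM with Soshiho-tang and 108 ± 2.58 CPM with Yijin-tang (0.53 ± 0.047). Among reductases, AKR1B10 measured 258, 264 and 263 CPM with Soshiho-tang and 150.3, 137 and 143 CPM with Yijin-tang (0.87 ± 0.048). AKR1C1 rose by 0.63 ± 0.069, thioredoxin reductase TXNRD1 by 0.54 ± 0.055, and the quinone reductase NQO1 by 0.34 ± 0.048 on the log2 scale, and AKR1C1 has close paralogs among which reads may be divided. Other parts of the programme rose too, namely the efflux pump ABCC2 (0.79 ± 0.22, not past in 1 of 17 alternatives), the ferritin heavy chain FTH1 (0.49 ± 0.055) and the selective autophagy receptor SQSTM1 (0.58 ± 0.034). EPHX1, ABCC3, CBR1 and TALDO1 had positive values that did not pass. Of 7 regulators, 3 were higher, the small MAF partners MAFF (0.55 ± 0.072) and MAFG (0.29 ± 0.055) and NFE2L2, which encodes NRF2 (0.17 ± 0.046, not past in 2 of 17 alternatives). Not every gene of glutathione chemistry followed. Of 14 measured glutathione transferases and peroxidases 1 was higher and 2 lower, GPX1 (-0.27 ± 0.049) and GSTK1 (-0.23 ± 0.050), with a median of -0.009. In the heme and iron list 25.0% of 16 genes were called, against 12.9% of all genes. It held 2 higher genes, ALAS1, which starts heme synthesis (0.38 ± 0.052), and the transferrin receptor TFRC (0.30 ± 0.047), and 2 lower, the iron exporter SLC40A1 (-0.47 ± 0.046) and ALAD (-0.30 ± 0.054).

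Most stress genes of the ATF4 pathway were higher with Soshiho-tang. Of 24 measured, 18 were higher and 0 lower, with a median log2 fold change of 0.35. ASNS, asparagine synthetase, measured 86.7, 85.1 and 94.0 CPM with Soshiho-tang and 51.6, 49.99 and 53.7 CPM with Yijin-tang (0.77 ± 0.051; edgeR quasi-likelihood with Benjamini-Hochberg, adjusted p = 1.32e-11), and vehicle lay with Yijin-tang at 49.1, 56.7 and 51.3 CPM. CHAC1, which degrades glutathione, measured 5.16, 5.22 and 5.25 CPM with Soshiho-tang and 2.17, 2.59 and 2.80 CPM with Yijin-tang (1.05 ± 0.14). For CHAC1 the vehicle libraries lay between the formulas, at 3.35, 3.55 and 3.94 CPM. The stress cytokine GDF15 averaged 72.3 ± 1.99 CPM with Soshiho-tang and 45.3 ± 2.96 CPM with Yijin-tang (0.67 ± 0.061). PPP1R15A, which reverses eIF2 phosphorylation, rose by 0.64 ± 0.058, ATF3 by 0.89 ± 0.15, the pseudokinase TRIB3 by 0.58 ± 0.063 and PSAT1 of serine synthesis by 0.35 ± 0.043. DDIT3, which encodes CHOP, measured 6.58, 6.34 and 6.55 CPM with Soshiho-tang and 4.38, 4.41 and 5.22 CPM with Yijin-tang (0.47 ± 0.12) and missed the threshold in 1 of 17 alternatives. Of 16 amino acid and glucose transporters, 11 were higher, including the glycine transporter SLC6A9 (1.39 ± 0.24), SLC3A2 (0.46 ± 0.049) and the glucose transporter SLC2A1 (0.48 ± 0.041). SLC6A9 is not among the largest rises named above, which had to average 2 CPM with no overlap, and it ran from 1.23 to 1.67 over 17 alternatives. The 1 lower member was SLC5A1, the sodium-coupled glucose transporter of the gut, at 5.39, 4.21 and 4.95 CPM with Soshiho-tang and 8.31, 7.68 and 8.75 CPM with Yijin-tang (-0.78 ± 0.12). Protein folding in the endoplasmic reticulum was shifted less: 13 of 20 chaperones and folding factors were higher and 0 lower, with a median of 0.21. HSPA5, the master chaperone there, measured 628, 611 and 586 CPM with Soshiho-tang and 506, 506 and 511 CPM with Yijin-tang (0.26 ± 0.043), and DNAJB9 rose most (0.52 ± 0.11). In the cytosol 6 of 17 heat shock genes were higher, among them HSPH1 (0.28 ± 0.059), and 1 lower, HSPB1 (-0.28 ± 0.075, not past in 4 of 17 alternatives). Differences in proteasome subunits were small, with 15 of 32 higher, 0 lower, all 32 values positive and a median of 0.13. That count was 9 under upper-quartile scaling, 9 without Soshiho-tang replicate 2 and 7 without Yijin-tang replicate 2.

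Most growth factor genes of the EGF family, and many immediate early genes, were higher with Soshiho-tang. Of 9 measured receptors, ligands and inhibitors, 6 were higher and 1 lower, with a median log2 fold change of 0.42. The ligand EREG measured 157, 165 and 167 CPM with Soshiho-tang and 80.0, 88.5 and 91.8 CPM with Yijin-tang (0.91 ± 0.079; edgeR quasi-likelihood with Benjamini-Hochberg, adjusted p = 9.88e-08). The ligand AREG averaged 73.3 ± 2.87 CPM with Soshiho-tang and 49.1 ± 2.67 CPM with Yijin-tang (SD, n = 3 each; 0.58 ± 0.071), and EGFR, the receptor, averaged 258 ± 5.99 CPM with Soshiho-tang and 191 ± 3.13 CPM with Yijin-tang (0.43 ± 0.034). The vehicle libraries measured 92.3, 106 and 85.8 CPM for EREG and 50.4, 60.1 and 61.7 CPM for AREG, below all Soshiho-tang libraries and in part within the range of Yijin-tang. HBEGF (0.42 ± 0.080), TGFA (0.41 ± 0.040) and the feedback inhibitor ERRFI1 (0.48 ± 0.064) also rose, and ERBB3 fell (-0.21 ± 0.037). Of 23 immediate early and ERK feedback genes, 13 were higher and 1 lower, SPRY2 (-0.26 ± 0.070, not past in 2 of 17 alternatives), and without Yijin-tang replicate 1 the higher count was 8. FOSB, a subunit of AP-1, measured 9.18, 7.92 and 8.29 CPM with Soshiho-tang and 4.10, 4.15 and 4.15 CPM with Yijin-tang (1.03 ± 0.11). DUSP5, a phosphatase that switches ERK off in the nucleus, measured 9.78, 9.58 and 10.6 CPM with Soshiho-tang and 5.31, 4.98 and 5.14 CPM with Yijin-tang (0.95 ± 0.11), and FOSL1, another AP-1 subunit, rose by 0.60 ± 0.062. In FOSB, DUSP5 and FOSL1 the groups did not overlap.

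Inflammatory and adhesion genes that passed were higher. Of 14 NF-kB targets 6 were higher and 0 lower (median 0.22), including the chemokine CXCL8, at 9.96, 10.3 and 9.79 CPM with Soshiho-tang and 7.14, 5.96 and 7.94 CPM with Yijin-tang (0.51 ± 0.096), the apoptosis inhibitor BIRC3 (0.64 ± 0.12), RELB (0.53 ± 0.10) and ICAM1 (0.51 ± 0.12). In the adhesion list 9 of 15 were higher and 0 lower. LAMA3, a chain of laminin-332, measured 42.9, 38.5 and 42.4 CPM with Soshiho-tang and 23.03, 21.7 and 21.5 CPM with Yijin-tang (0.90 ± 0.057), and the laminin receptor subunits ITGA6 (0.29 ± 0.041) and ITGA3 (0.29 ± 0.043) rose less. EMP1 (chromosome 12, 13196716 to 13219939), a membrane protein of epithelia, measured 83.4, 81.3 and 85.3 CPM with Soshiho-tang and 39.5, 37.4 and 40.2 CPM with Yijin-tang (1.09 ± 0.053; edgeR quasi-likelihood with Benjamini-Hochberg, adjusted p = 2.69e-14). The organic cation transporter SLC22A3 measured 23.1, 23.05 and 24.1 CPM with Soshiho-tang and 10.6, 9.91 and 9.02 CPM with Yijin-tang (1.25 ± 0.093), and vehicle lay lower still at 6.34, 6.86 and 4.78 CPM. AKAP12, a scaffold for protein kinase A, rose by 1.06 ± 0.071 and ADGRF1, an adhesion G protein-coupled receptor, by 1.05 ± 0.071. Reads of IGFL2-AS1 (1.02 ± 0.21) and its antisense partner may not be told apart, since the strand setting of the counting is not given in the sources used here.

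Targets of the liver X receptors (LXR), which sense oxysterols and drive cholesterol out of cells, were lower where they passed. Of 7 measured, 4 were lower with Soshiho-tang and 0 higher, with a median log2 fold change of -0.32. ABCG1 (chromosome 21, 42199689 to 42297244), a cholesterol exporter, measured 3.02, 3.42 and 3.70 CPM with Soshiho-tang and 8.21, 7.62 and 6.87 CPM with Yijin-tang (-1.17 ± 0.13; edgeR quasi-likelihood with Benjamini-Hochberg, adjusted p = 9.84e-08). Vehicle measured 2.22, 1.66 and 1.604 CPM, so here the Yijin-tang libraries were the ones farther from vehicle. The exporter ABCA1 measured 4.61, 3.53 and 4 CPM with Soshiho-tang and 9.0, 7.88 and 7.41 CPM with Yijin-tang (-1.01 ± 0.14), against 4.14, 4.58 and 4.38 CPM in vehicle, again nearer Soshiho-tang. SREBF1, which encodes the regulator of fatty acid synthesis, measured 119.8, 126 and 112 CPM with Soshiho-tang and 166, 161 and 151 CPM with Yijin-tang (-0.42 ± 0.076), and MYLIP, a ubiquitin ligase, fell by 0.32 ± 0.069. SMPDL3A (0.28 ± 0.14), LPCAT3 (-0.073 ± 0.044) and NR1H3, which encodes LXR alpha (-0.028 ± 0.055), did not pass. Cholesterol synthesis was mixed, with 5 of 25 genes higher, among them SQLE (0.27 ± 0.039), and 1 lower, TM7SF2 (-0.32 ± 0.056). HMGCS1, which commits acetyl-CoA to that pathway, averaged 160.0 ± 3.28 CPM with Soshiho-tang and 152 ± 6.81 CPM with Yijin-tang and did not pass. In fatty acid oxidation 4 of 14 were higher and 1 lower.

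Nearly all genes of the secretory lineage that passed were lower with Soshiho-tang, and many did not pass. ATOH1 (chromosome 4, 93828753 to 93830964), the lineage's master transcription factor, measured 0.366, 1.01 and 1.10 CPM with Soshiho-tang and 3.34, 3.42 and 3.15 CPM with Yijin-tang, a log2 fold change of -1.98 ± 0.22 (edgeR quasi-likelihood with Benjamini-Hochberg, adjusted p = 1.51e-07). The Yijin-tang libraries lay near vehicle, which measured 4.499, 3.39 and 4.23 CPM, and the 3 Soshiho-tang libraries lay below all of them. Of 20 measured goblet and secretory genes 9 were lower and 1 higher, with a median of -0.43. CREB3L1, a factor of secretory capacity, measured 85.2, 78.1 and 80.3 CPM with Soshiho-tang and 137, 151 and 145 CPM with Yijin-tang (-0.83 ± 0.079). BCAS1 (-0.79 ± 0.065), the lectin REG4 (-0.58 ± 0.085), the trefoil peptide TFF3 (-0.58 ± 0.15), the mucin-folding enzyme AGR2 (-0.35 ± 0.077), the membrane mucin MUC13 (-0.34 ± 0.063), FCGBP (-0.86 ± 0.22) and AGR3 (-0.52 ± 0.16) fell, the calls of FCGBP and AGR3 being lost in 4 and 5 of 17 alternatives. MUC2, the main gel-forming mucin of the colon, measured 10.3, 9.65 and 10.2 CPM with Soshiho-tang and 15.1, 15.7 and 12.8 CPM with Yijin-tang, and although the libraries did not overlap it missed the threshold (-0.53 ± 0.25; in edgeR's quasi-likelihood test the Benjamini-Hochberg adjusted p was 0.199). MUC5AC measured 323, 303 and 233 CPM with Soshiho-tang and 252, 275 and 219 CPM with Yijin-tang, with overlap and no call. KLF4, a factor of goblet maturation, was the 1 higher member, at 10.9, 10.6 and 9.99 CPM with Soshiho-tang and 7.28, 6.90 and 7.18 CPM with Yijin-tang (0.56 ± 0.095). The remaining members, SPDEF, FOXA3, GFI1, SPINK4, TFF1, TFF2, MUC5B and MUC1, did not pass, with log2 fold changes between -1.16 and 0.49.

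Notch genes moved in both directions. Among ligands, DLL4 measured 1.05, 2.02 and 1.499 CPM with Soshiho-tang and 4.55, 3.99 and 3.76 CPM with Yijin-tang (-1.40 ± 0.18), DLL1 was also lower (-0.84 ± 0.26, not past in 6 of 17 alternatives), JAG1 was higher at 31.1, 33.2 and 30.6 CPM with Soshiho-tang and 24.1, 23.8 and 23.8 CPM with Yijin-tang (0.41 ± 0.055), and JAG2 did not pass (0.078 ± 0.085). The glycosyltransferase LFNG, which tunes receptor choice of ligand, fell by 0.31 ± 0.055, and HES6, a factor of the same family as the Notch effector HES1, was lower (-0.52 ± 0.11). Receptors and effectors gave no call: NOTCH1 had -0.094 ± 0.078, NOTCH2 -0.076 ± 0.050, NOTCH3 -0.95 ± 0.37, RBPJ 0.046 ± 0.045, MAML1 -0.045 ± 0.047, HES1 -0.18 ± 0.069, HES4 -0.27 ± 0.19 and NRARP -0.23 ± 0.087. Thus 4 of 14 measured Notch genes were lower and 1 higher (35.7% called, against 12.9% of all genes). In the enteroendocrine list 1 of 4 measured genes was lower, NEUROG3, the lineage's initiating factor, at 0.320, 0.288 and 0.3 CPM with Soshiho-tang and 1, 0.830 and 0.806 CPM with Yijin-tang (-1.54 ± 0.35).

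WNT targets and stem cell genes were lower where they moved, with 7 of 18 lower and 0 higher. EPHB3, a receptor that positions crypt cells, measured 10.9, 10.8 and 10.8 CPM with Soshiho-tang and 18.5, 20.0 and 21.4 CPM with Yijin-tang (-0.88 ± 0.083), and its relative EPHB2 fell by 0.43 ± 0.11. ASCL2, the stem cell factor of the crypt, measured 1.92, 1.69 and 2.15 CPM with Soshiho-tang and 2.83, 4.201 and 3.65 CPM with Yijin-tang (-0.88 ± 0.18), and NOTUM, a secreted WNT inhibitor (-1.03 ± 0.31), SP5 (-0.64 ± 0.11) and, to a lesser degree, the stem cell receptor LGR5 (-0.19 ± 0.050) fell too. NOTUM did not pass in 6 and LGR5 in 2 of 17 alternatives. AXIN2, the most used readout of WNT signalling, averaged 78.0 ± 4.37 CPM with Soshiho-tang and 78.7 ± 1.78 CPM with Yijin-tang (SD, n = 3 each) and did not pass (-0.014 ± 0.052). Of 9 measured enterocyte genes 1 was higher, KRT20 (0.51 ± 0.049), and 3 lower, VIL1 of the brush border (-0.37 ± 0.043), the carbonic anhydrase CA2 (-0.47 ± 0.084) and GUCA2A (-1.60 ± 0.44), whose call 2 of 14 alternatives ended.

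The genes of mucosal defence that passed were lower with Soshiho-tang. NOX1 (chromosome X, 100843324 to 100874345), the superoxide-producing oxidase of the colon epithelium, measured 3.93, 4.11 and 3.80 CPM with Soshiho-tang and 11.3, 13.9 and 13.0 CPM with Yijin-tang (-1.67 ± 0.11; edgeR quasi-likelihood with Benjamini-Hochberg, adjusted p = 6.44e-12), and vehicle lay with Yijin-tang at 14.3, 13.5 and 14.1 CPM. Its organiser NOXO1 (-0.51 ± 0.094), its membrane partner CYBA (-0.15 ± 0.049, not past in 8 of 17 alternatives), the siderophore-binding LCN2 (-0.34 ± 0.058) and DMBT1 (-1.63 ± 0.43, not past in 3 of 14 alternatives) were lower too, so that 5 of 8 measured members fell and 0 rose. That count was 3 without Soshiho-tang replicate 2 or without Yijin-tang replicate 3. Of 27 interferon response genes 6 were lower and 0 higher (22.2% called, against 12.9% of all genes). They had 25 negative values and a median log2 fold change of -0.23, and without Soshiho-tang replicate 2 the count was 3. The interferon regulatory factor IRF1, which is outside this list, was higher, with log2 fold changes of 0.27 to 0.35 over 17 alternatives. IRF9, a subunit of the interferon-driven transcription factor, measured 5.21, 4.83 and 3.70 CPM with Soshiho-tang and 7.52, 7 and 7.56 CPM with Yijin-tang (-0.68 ± 0.11), and IFI35 (-0.53 ± 0.11), IFIT2 (-0.71 ± 0.19), OAS2 (-0.97 ± 0.30) and STAT2 (-0.27 ± 0.071) fell with it, the last 3 failing to pass in 2, 5 and 1 of 17 alternatives.

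Among genes with a mean of at least 2 CPM that passed, the widest fall was that of CD200 (chromosome 3, 112332347 to 112362812), a membrane glycoprotein that restrains myeloid cells, at 0.914, 0.828 and 1.20 CPM with Soshiho-tang and 3.31, 4.05 and 5.37 CPM with Yijin-tang (-2.13 ± 0.22; edgeR quasi-likelihood with Benjamini-Hochberg, adjusted p = 5.87e-08), with 5.21, 5.88 and 5.32 CPM in vehicle. The long noncoding RNA LINC00261 averaged 2.96 ± 0.308 CPM with Soshiho-tang and 9.38 ± 1.26 CPM with Yijin-tang (-1.66 ± 0.16), and GABRP, a GABA-A receptor subunit, averaged 5.34 ± 0.479 CPM with Soshiho-tang and 14.0 ± 0.256 CPM with Yijin-tang (-1.39 ± 0.11). The urea transporter SLC14A1 (-1.38 ± 0.19), the kinase gene SPEG (-1.34 ± 0.16), SLC38A11 of an amino acid transporter family (-1.25 ± 0.10), the chondroitin sulfotransferase CHST3 (-1.25 ± 0.13) and the ubiquitin ligase RNF144B (-1.20 ± 0.096) completed the largest falls with the pseudogene NPY6R (-1.26 ± 0.19), which other loci can share reads with. Targets of p53 split, with 3 of 20 higher and 4 lower (35.0% called, against 12.9% of all genes). The cell cycle inhibitor CDKN1A measured 13.3, 13.6 and 14.9 CPM with Soshiho-tang and 10.1, 9.91 and 10.4 CPM with Yijin-tang (0.46 ± 0.084), while BTG2, an antiproliferative gene, measured 14.4, 13.3 and 13.4 CPM with Soshiho-tang and 28.9, 30.5 and 31.5 CPM with Yijin-tang (-1.14 ± 0.060). SESN1 (-0.80 ± 0.068), TP53INP1 (-0.74 ± 0.15) and RRM2B (-0.20 ± 0.065, not past in 6 of 17 alternatives) fell with BTG2, and PLK3 (0.39 ± 0.074) and PHLDA3 (0.43 ± 0.094) rose with CDKN1A. Of 11 FOXO targets 4 were lower and 0 higher, including TXNIP, an inhibitor of glucose uptake (-0.61 ± 0.058), and SESN3 (-0.75 ± 0.17). In the lysosome list 3 of 25 were higher and 3 lower (24.0% called). Among the lower, the proton pump subunit ATP6V1B1 measured 8.59, 8.39 and 8.24 CPM with Soshiho-tang and 17.8, 17.9 and 19.7 CPM with Yijin-tang (-1.13 ± 0.10).

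Genes of proliferation, ribosomal proteins, the respiratory chain and splicing gave few or no calls, while glycolysis and ribosome biogenesis held larger shares of calls in the main fit. MKI67, a marker of cycling cells, averaged 1103 ± 51.6 CPM with Soshiho-tang and 1084 ± 66.0 CPM with Yijin-tang (0.025 ± 0.053, not past). Of 32 DNA replication genes 2 were higher, CDC6 (0.24 ± 0.041) and RRM2 (0.14 ± 0.034), and 0 lower, though 5 were lower under upper-quartile scaling. Of 25 mitosis genes 1 was higher and 1 lower. An unadjusted p below 0.05 was held by 9 DNA replication and 7 mitosis genes, and by 25.1% of all genes. Libraries did not overlap upward in 5 DNA replication and 12 mitosis genes, and downward in 8 and 2. Over all genes those shares were 17.0% upward and 16.4% downward. No gene passed among 53 cytosolic ribosomal proteins (log2 fold changes from -0.05 to 0.13), 34 nuclear-encoded respiratory chain subunits and 22 splicing factors, of which 0, 1 and 0 had an unadjusted p below 0.05, and DESeq2 and limma-voom called 0 in each. All 13 mitochondrially encoded genes had negative values (median -0.13) and 1 passed, MT-CO3 (-0.25 ± 0.074), which 7 of 16 alternatives ended. In glycolysis and hypoxia 46.2% of 26 genes were called, against 12.9% of all genes. Of the 26, 10 were higher, among them PFKP (0.37 ± 0.042) and LDHA, and 2 lower, CA9 (-0.21 ± 0.066, not past in 6 of 17 alternatives) and PFKL. Of 28 ribosome biogenesis genes 7 were higher (25.0%) and 0 lower, and the count of higher genes was 4 under upper-quartile scaling and 3 without Yijin-tang replicate 2.

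**Figure D2:**
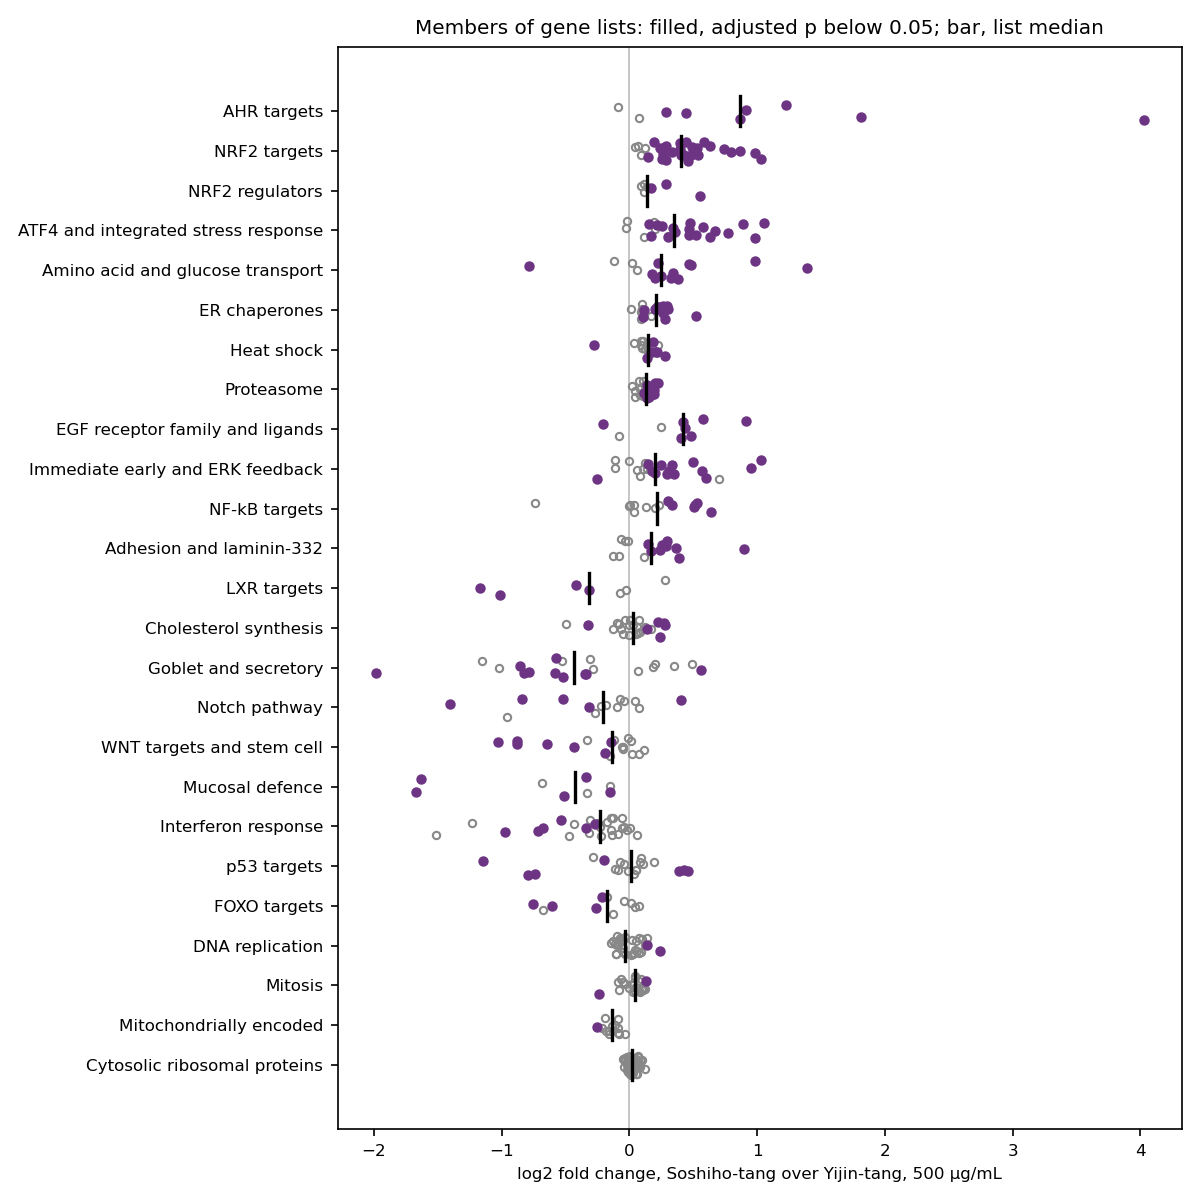
Log2 fold change of Soshiho-tang over Yijin-tang at a labelled 500 µg/mL for each measured member of 25 gene lists, with 1 list per line. Filled points have an adjusted p below 0.05, open points do not, and a black bar marks the median of each list. AHR and NRF2 targets lie to the right, with medians of 0.87 and 0.40, and goblet and mucosal defence genes to the left, with medians of -0.43 and -0.42.

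At the lower doses the formulas gave no call in the edgeR fit of 21 libraries. At a labelled 100 µg/mL 0 genes passed between Soshiho-tang and Yijin-tang in the edgeR quasi-likelihood test (0.0%), and 342 had an unadjusted p below 0.05 (2.15%). The 3 Soshiho-tang libraries there all lay above those of Yijin-tang in 4.53% of genes and all below in 4.07%. At 20 µg/mL 0 passed and 339 had an unadjusted p below 0.05 (2.13%), with no overlap upward in 3.97% of genes and downward in 4.02%. Both shares of unadjusted p lie below the 0.05 given where nothing differs. The test may thus be cautious at these doses, and 0 calls do not show the formulas to be equal. Vehicle replicates, which share in the estimate of the spread, differed by 11.2 to 20.6 in chi-square per degree of freedom. Extract replicates differed by 2.41 to 7.03, and the effect on the calls was not tested. DESeq2 called 1 gene at each of these doses and limma-voom 0. With only the libraries compared in the edgeR fit, 5 genes passed at 20 µg/mL and 15 with a replicate block, and 2 and 4 at 100 µg/mL. The median absolute log2 fold change between the formulas was 0.046 at 20 µg/mL, 0.048 at 100 µg/mL and 0.11 at 500 µg/mL. Of the 1039 genes higher with Soshiho-tang at 500 µg/mL, 65.7% had a positive value at 20 µg/mL and 65.0% at 100 µg/mL, against 50.3% and 50.7% of all genes. Of the 1013 lower genes, 45.9% had a positive value at 20 µg/mL and 47.0% at 100 µg/mL, nearer those shares of all genes.

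**Figure D3:**
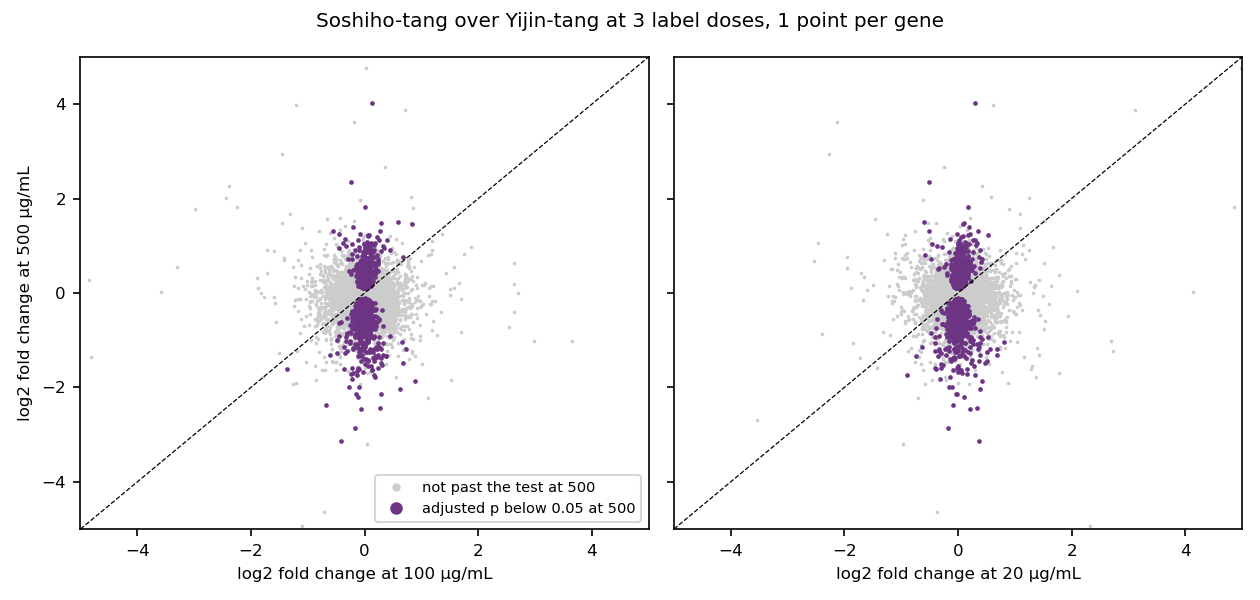
Log2 fold change of Soshiho-tang over Yijin-tang at a labelled 500 µg/mL (vertical) against that at 100 µg/mL (left) and 20 µg/mL (right), with 1 point per gene, for values within 5 on each axis. Purple points are genes past the test at 500 µg/mL. They form a vertical band around 0 on the horizontal axes, where 0 genes passed at either lower dose.

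The dose at which single genes parted is seen in the group means. CYP1A1 averaged 0.596 CPM in vehicle, and with Soshiho-tang 1.03 CPM at 20 µg/mL, 2.20 at 100 µg/mL and 128 at 500 µg/mL. With Yijin-tang it averaged 0.835, 2.06 and 7.72 CPM at those doses, so both formulas rose with dose and parted at the last step. SLC7A11 averaged 111 CPM in vehicle, then 173, 180.3 and 413 CPM over the doses of Soshiho-tang and 159, 172 and 209 CPM over those of Yijin-tang. ABCG1 averaged 1.83 CPM in vehicle, then 2.65, 2.48 and 3.38 CPM with Soshiho-tang and 2.51, 2.86 and 7.57 CPM with Yijin-tang, highest at the top dose of Yijin-tang. NOX1 averaged 14.0 CPM in vehicle, then 17.3, 15.5 and 3.94 CPM with Soshiho-tang and 17.3, 15.8 and 12.7 CPM with Yijin-tang.

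**Figure D4:**
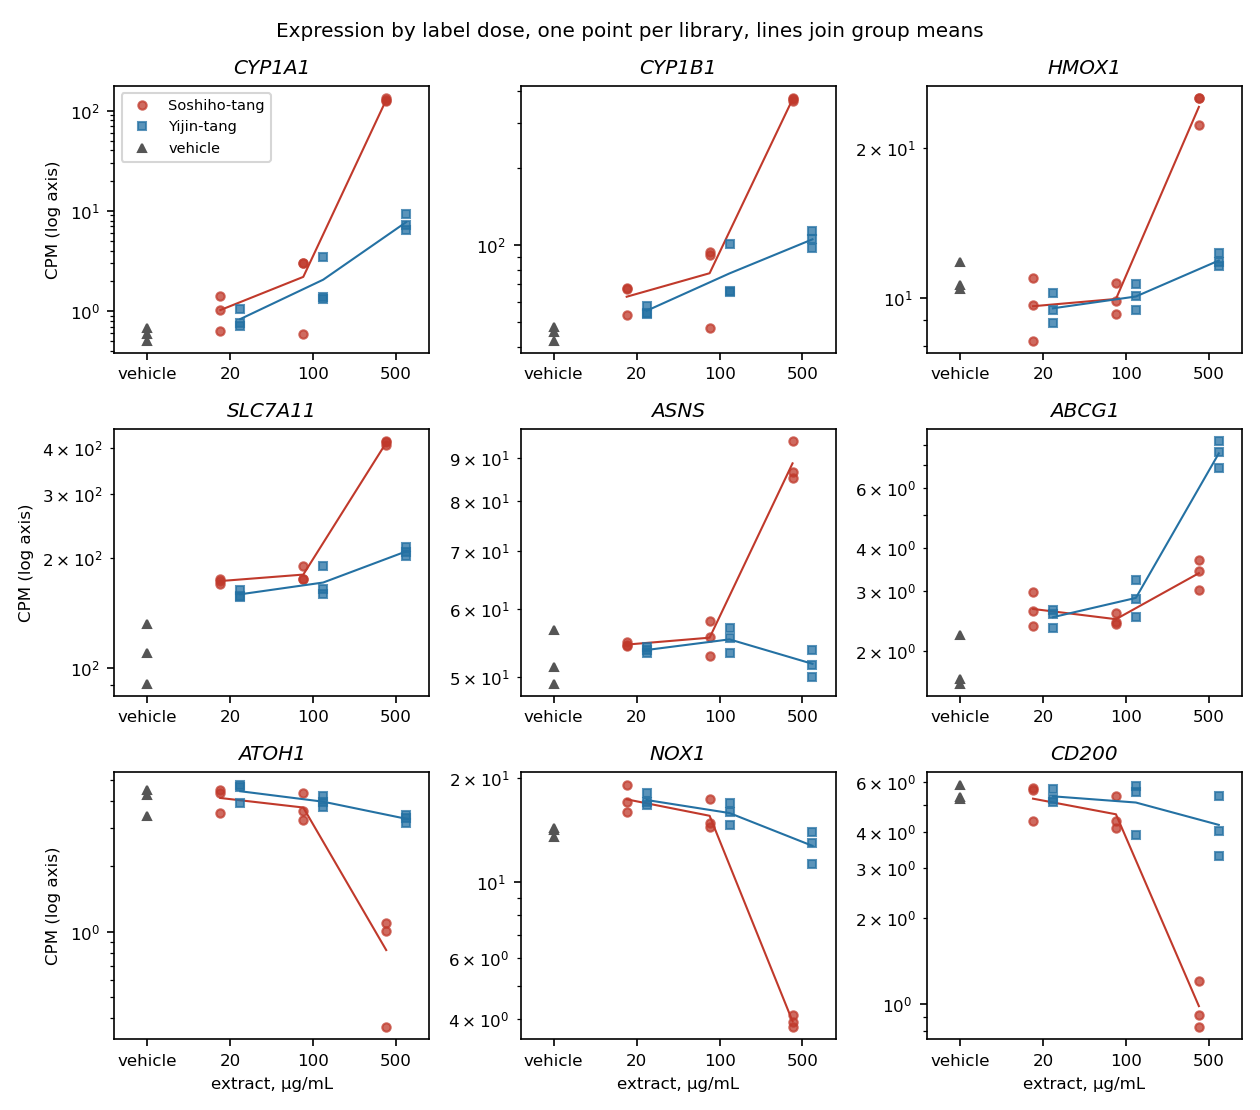
CPM on a log axis by label dose for 9 genes, with 1 point per library and lines joining the means of Soshiho-tang (red circles) and Yijin-tang (blue squares), and vehicle libraries as grey triangles. The formulas lie close together at 20 and 100 µg/mL and apart at 500 µg/mL, where ABCG1 is the gene in which Yijin-tang is farther from its lower doses.

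The difference between the formulas was itself tested for a change with dose, as the difference at 500 µg/mL minus that at 20 µg/mL. This passed for 727 of 15882 genes (4.58%), 342 with a higher value at 500 µg/mL (2.15%) and 385 with a lower one (2.42%). The count was 1339 without vehicle libraries, 1352 with only the libraries compared and 1639 with the replicate block added to that fit. Upper-quartile scaling gave 272 higher and 469 lower. By size, 13 of them differed upward and 69 downward by at least 2-fold. By list, 18 of 30 NRF2 targets, 12 of 24 ATF4 genes, 5 of 9 AHR targets and 6 of 9 genes of the EGF family passed upward, and 6 of 20 goblet and secretory genes, 3 of 7 LXR targets and 3 of 18 WNT genes passed downward. The high-dose libraries enter both this test and the high-dose comparison, so the 2 counts are not separate evidence.

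The genes that differed at the high dose were mostly genes in which Soshiho-tang had moved farther from its own lowest dose. Of the 1039 higher genes this held for 997 (96.0%), with a median log2 shift between 20 and 500 µg/mL of 0.28 for Soshiho-tang and 0.063 for Yijin-tang. Of the 1013 lower genes it held for 990 (97.7%), with medians of -0.45 for Soshiho-tang and -0.094 for Yijin-tang. Both formulas had moved in the same direction in 816 of the higher genes (78.5%) and in 801 of the lower ones (79.1%). The vehicle mean was nearer that of Yijin-tang in 923 of the higher genes (88.8%) and in 896 of the lower genes (88.5%). These are counts over genes chosen from the same high-dose libraries, and the same shares over all genes were not computed. They describe only where the groups lay in the chosen genes.

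**Figure D5:**
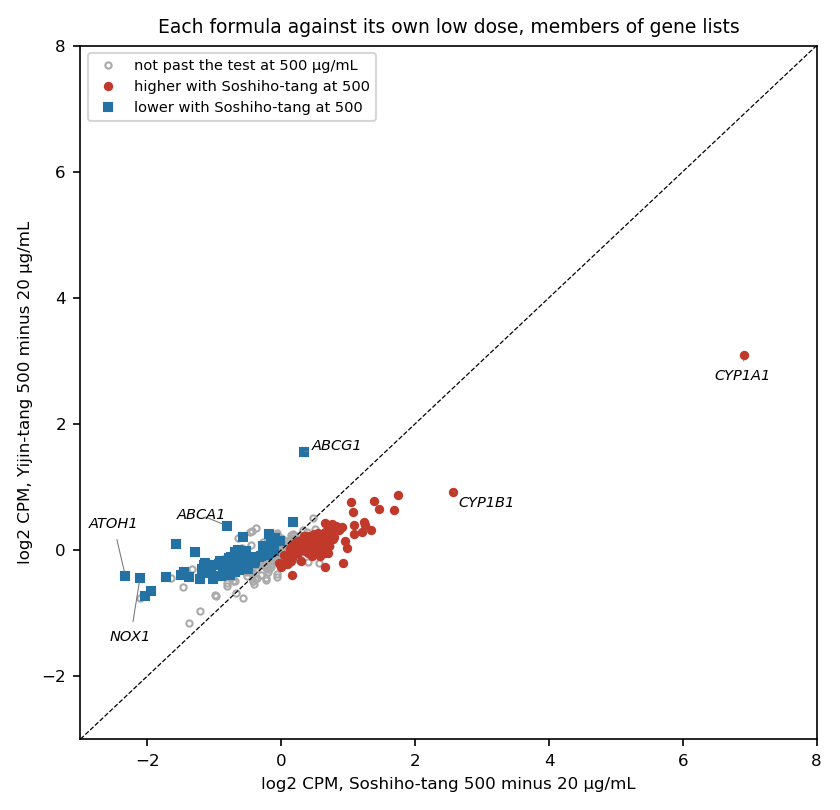
Change in log2 CPM between a labelled 20 and 500 µg/mL for Soshiho-tang (horizontal) and Yijin-tang (vertical), with 1 point per measured gene of the gene lists. Red circles are higher and blue squares lower with Soshiho-tang at 500 µg/mL, open points did not pass, and on the dashed line both formulas moved equally. Most coloured points spread farther along the horizontal axis, and ABCG1, at 0.34 for Soshiho-tang and 1.56 for Yijin-tang, is an exception.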

How the data were processed

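The authors deposited 1 table of RSEM expected counts per Ensembl gene (60675 rows, 30 named columns, and 30 columns with no name or values), not normalised between libraries. The tools listed in the submitters' processing notes are RSEM 1.3.3, STAR 2.7.3a, Trim Galore 0.6.5 and FastQC 0.11.9, with genome build GRCh38, and the annotation release is not given in the sources used here. Per the labels' protocols, RNA with an integrity number above 7 went into directional paired-end libraries. Expected counts divide reads between similar genes, so paralogs and pseudogenes are less certain. Between 9.52% and 11.5% of a library's values were not whole.

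Here the counts were rounded and 21 libraries (both formulas at 3 doses, and vehicle) were fitted together in R 4.3.3 with edgeR 4.0.16: filterByExpr by group, TMM, and its robust quasi-likelihood F-test, with no covariate. The biological coefficient of variation was 4.71%. P-values were adjusted by Benjamini-Hochberg over 15882 genes, with a threshold of 0.05. The SE is the log2 fold change divided by the root of F. The alternatives used DESeq2 1.42.0, limma-voom (limma 3.58.1), other scalings and filters, fits without vehicle or with only the libraries compared, a replicate block, and each library left out. No pair of replicates agreed within sampling noise. Depth was 18.5 M to 36.2 M counts over all 30 libraries, and counts carry no molecular identifiers. Same-numbered low-dose libraries correlated in their deviations from the group means over 9270 genes (0.21, 0.173 and 0.13). Differently numbered high-dose libraries reached 0.149 and 0.174, so correlations of this size do not settle whether replicate numbers pair libraries. In the fit of 21 libraries the block left the low-dose count at 0. With only the low-dose libraries 5 genes passed without the block and 15 with it. The fit was tested on simulated data, with 50 genes changed at each size. It called 58% of 1.25-fold, 88% of 1.5-fold and 100% of 2-fold and 4-fold changes in the high-dose comparison. It also made 13 false calls there among 15693 genes, so small differences can be missed.

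Genes named are the 12 largest rises and falls past the test (mean of at least 2 CPM, no overlap of libraries, approved symbol), the 5 largest in each direction of the other contrasts, the 4 members with the smallest adjusted p of each of 45 gene lists, all measured members of the AHR, LXR, Notch, goblet and marker lists, and 30 further list members picked after their values were seen. The comparison, its lists and the rule were chosen with earlier results of these data known. Symbols were found for 56558 identifiers and GENCODE release 29 coordinates for 57055. Promoters are from RefSeq (GRCh38.p14). Some list members are not reported here by name.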

Additional observations from a re-analysis of the deposited data

Results flagged for a closer look

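The difference between the formulas changed with dose, by a test of the difference at a labelled 500 µg/mL minus that at 20 µg/mL (edgeR's quasi-likelihood test, adjusted by Benjamini-Hochberg), in 727 genes. The 5 with the largest upward change at a mean of at least 2 CPM over the 12 libraries were CYP1A1, whose difference grew by 3.73 on the log2 scale, CYP1B1 (1.63), TLR6 (1.37), ALDH1A3 (1.05) and SLC22A3 (1.03). TLR6, a receptor for bacterial lipopeptides, measured 3.93, 3.46 and 4.70 CPM with Soshiho-tang and 1.97, 1.92 and 2.07 CPM with Yijin-tang at 500 µg/mL. Its group means at 20 µg/mL were 1.32 CPM with Soshiho-tang and 1.71 CPM with Yijin-tang, in the opposite order, but that low-dose difference did not pass. The 5 with the largest downward change were CD200 (-2.11), ATOH1 (-1.87), NOX1 (-1.68), LINC00261 (-1.67) and NEURL1 (-1.57), a ubiquitin ligase whose Drosophila relative acts on Notch ligands. NEURL1 measured 0.594, 1.12 and 0.550 CPM with Soshiho-tang and 2.34, 2.28 and 2.42 CPM with Yijin-tang at 500 µg/mL, with a vehicle mean of 3.54 CPM. The change of CYP1A1 had an SE of 0.76.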

How the results depend on the processing

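The high-dose count of 2052 lay between 1850 (DESeq2) and 3027 (without vehicle libraries) over the other settings, and between 1493 and 1631 with 1 library left out. With a replicate block it was 2199, and with only the 6 libraries compared and the block, a fit added after the data were seen, 2792. Whether replicate numbers pair the libraries is not settled by the correlations of their deviations. At the high dose same-numbered libraries had correlations of 0.0632, -0.188 and 0.0487, and not every library correlated best with its own number. At the medium dose the correlations of same-numbered libraries were 0.0502, -0.0355 and -0.0427. At the medium dose the count of 0 became 1 with DESeq2, 4 with no filter, 2 with only the libraries compared and 4 with the block added to that fit. At the low dose it became 1, 4, 5 and 15 under the same settings. Leaving out 1 library kept both counts at 0, and so did the block in the fit of 21 libraries. The count of 727 genes whose difference changed with dose became 1339 without vehicle libraries, 1352 with only the libraries compared and 1639 with the block added to that fit, against 743 with the block in the full fit and 551 to 631 with 1 library left out. The cause of these changes was not tested. Upper-quartile scaling left the number of calls near the main one (2076), with fewer of them higher (789 against 1039), and the median log2 fold change of all genes was -0.032 against -0.006 with TMM. Of 259 named genes 189 passed, 149 of them under every alternative, and 25 of the 70 others passed in at least 1. No named gene passed with opposite signs. Depth limits genes near 1 CPM, such as NEUROG3 and DLL1.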

Other observations

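The other gene lists are given here against the 12.9% of all genes called between the high doses. Shares called were 21.4% of YAP targets, 33.3% of colorectal epithelial markers, 20.0% of fatty acid synthesis and 16.7% of metallothioneins and zinc exporters. They were 9.09% of histone genes, 12.5% of glucocorticoid targets, 40.0% of markers of other cell types and 66.7% of single-pathway markers. Of 14 YAP targets and partners 1 was higher with Soshiho-tang, the DNA-binding partner TEAD1 (0.29 ± 0.034 on the log2 scale), and 2 lower, the kinase NUAK2 (-0.56 ± 0.15, not past in 3 of 17 alternatives) and the matricellular protein CCN2, at 2.10, 1.94 and 1.65 CPM with Soshiho-tang and 2.90, 2.07 and 3.42 CPM with Yijin-tang (-0.58 ± 0.17, edgeR quasi-likelihood with Benjamini-Hochberg, adjusted p = 0.0191, not past in 4 of 17 alternatives). Of 15 colorectal epithelial markers 3 were higher, KRT20 and the adhesion molecules CEACAM5 (0.58 ± 0.13) and CEACAM6 (0.47 ± 0.071), close paralogs among which reads may be divided, and 2 lower, VIL1 and the hepatocyte and gut factor HNF4A (-0.24 ± 0.045). CEACAM5, a tumour antigen of the colon, measured 11.7, 10.1 and 12.04 CPM with Soshiho-tang and 7.34, 7.05 and 8.06 CPM with Yijin-tang. In fatty acid synthesis 1 of 10 was higher, FADS3 (0.25 ± 0.078, not past in 5 of 17 alternatives), and 1 lower, the desaturase SCD (-0.12 ± 0.039, not past in 6 of 17 alternatives). Of 6 metallothioneins and zinc exporters 1 was higher, the exporter SLC30A1 (0.21 ± 0.064, not past in 5 of 17 alternatives). The other 5 had negative values that did not pass, with MT1E (-0.32 ± 0.11) lower in 9 of 17 alternatives, and the median of the list was -0.211. Of 11 histone genes 1 was higher, H3-3B (0.19 ± 0.039), and of 8 glucocorticoid targets 1 was lower, TSC22D3 (-0.32 ± 0.094, not past in 5 of 17 alternatives). The markers of other cell types that could be tested numbered 5, with LUM higher (0.72 ± 0.24, not past in 9 of 17 alternatives) and CD14 lower (-0.71 ± 0.17, not past in 1 of 17 alternatives), both at low levels: LUM measured 1.51, 1.40 and 1.35 CPM with Soshiho-tang and 0.793, 0.882 and 0.921 CPM with Yijin-tang. In a list of 12 genes that mark single pathways 7 were higher and 1 lower, all of them described above.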
